A study of Mus musculus with 9 samples.

Results

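The genes described here make cholesterol and fatty acids or control that synthesis. A set of 32 genes was given, and 31 of them had a probe set on the array that names a single gene, out of 18193 genes with such a probe set. Acat2 had none and is not described further. Each gene is represented by its brightest probe set, the one with the highest mean over 9 arrays. Of the 31 genes, 29 passed a filter on low values and were tested among 12398 genes, and Tm7sf2 and Scd1 lay below it, so that only their levels are given.

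Cholesterol is built from acetyl-CoA through the mevalonate pathway, which also supplies isoprenoids, and then through squalene and a row of sterol intermediates. The transcription factors SREBP1 and SREBP2, encoded by Srebf1 and Srebf2, switch on these genes when membranes run low in sterol. SCAP carries the SREBPs to the Golgi for cleavage, and the INSIG proteins hold SCAP back in the endoplasmic reticulum when sterol is plentiful. The same factors drive fatty acid synthesis, in which acetyl-CoA is made from citrate, lengthened to palmitate, elongated and desaturated. Dividing blood progenitors need both products for new membranes.

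The RNA came from Lin-Sca1+cKit+ (LSK) cells, the marrow fraction that holds blood stem cells and multipotent progenitors, sorted 8 weeks after transplantation into lethally irradiated C57BL6 mice. In the first group the cells were GFP positive and came from mice transplanted with dnMPL transduced cells, so they carried the transgene. In the second group the cells came from dnMPL mice as well but were GFP negative, and in the third they came from control mice transplanted with wild type LSK cells. There were 3 arrays per group, hybridised with RNA from pools of 2 to 5 mice. The donor marrow of every group was of the same strain, and the protocol entered for all samples includes retroviral transduction before transplantation. The labels do not name a vector for the controls, so transduction and the transgene cannot be told apart in a comparison with them. The labels do not spell out the name dnMPL or give the promoter that drove the transgene.

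Levels are log2 RMA values, so that a difference of 1 is a 2-fold change, and levels of different genes are not compared. Precision is set by how few arrays there are. Array medians lay between 4.52 and 4.64. GFP-positive array 2 and control array 3 stood apart from the rest: limma weighted them at 0.369 and 0.365, and the other arrays at 0.809 or more. Gapdh, read near its 3′ end and near its 5′ end, differed by 3.22 on the first of these and 3.87 on the second, and by at most 2.89 elsewhere. A wide difference of this kind is known from incomplete transcripts. Of 6 tested LSK markers, 2 were higher and 4 lower than in control cells in each dnMPL group by point estimate. Over all genes, 47.2% were higher in GFP-positive and 46.5% in GFP-negative cells. Kit averaged 7.58, 8.05 and 8.49 in GFP-positive, GFP-negative and control cells. Its GFP-positive arrays were at 8.17, 6.38 and 8.17. Mecom differed by -0.90 in GFP-positive and -0.30 in GFP-negative cells, and Gata2 by -0.56 and -0.38. In GFP-positive cells Mecom was the 1 marker of 6 whose groups did not overlap, against 8.61% of all genes. Cd34 differed by 0.26 in GFP-positive and 0.0047 in GFP-negative cells, Flt3 by 0.059 and -0.030, and Cd48 by -0.25 and 0.30. Cd34 and Flt3 lay above the filter in every group. No value of Ly6a, which encodes Sca1, was used here. In bulk samples, fewer cells of a type and less RNA per cell cannot be told apart.

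The first comparison asked how synthesis genes in GFP-positive dnMPL cells differed from those of control cells. Members lay on both sides of 0: by point estimate 16 of 29 tested members were higher (47.2% of all genes were) and 13 lower, with a median log2 difference of 0.037, against a median of -0.028 over all 12398 genes. No member passed the test, limma with Benjamini-Hochberg adjustment over all genes tested (smallest adjusted p of a member 0.731), and 0% of all genes did, their smallest adjusted p being 0.228. At an unadjusted limma p under 0.05 there were 2 members, both lower (3.19% of all genes were lower at that level and 6.49% in either direction). These were Idi1, which makes the isomer that starts isoprenoid chains, and Fads1, which introduces a double bond into polyunsaturated fatty acids. They were also the tested members whose groups did not overlap, 2 of 29, both lower, against 8.61% of all genes in either direction and 4.26% lower. The directions rest in part on the arrays that stood apart: without GFP-positive array 2 and control 3 the sign turned in 10 of 29 members, and with array weights in 8.

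The second comparison set GFP-negative cells of the dnMPL mice against the same control arrays. Again 16 of 29 members were higher (46.5% of all genes were) and 13 lower, with a median log2 difference of 0.13 against -0.038 over all genes. None passed the adjusted test (smallest limma adjusted p of a member 0.783, with 0% of all genes past it). At an unadjusted limma p under 0.05, Sqle was higher and Fads1 and Idi1 were lower, 3 of 29 members against 5.57% of all genes. In 4 members the groups did not overlap (Idi1 and Fads1 lower, Sqle and Elovl6 higher), against 11.4% of all genes. The first and second comparison share their control arrays, so the values of a gene in them are not independent.

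**Figure D1:**
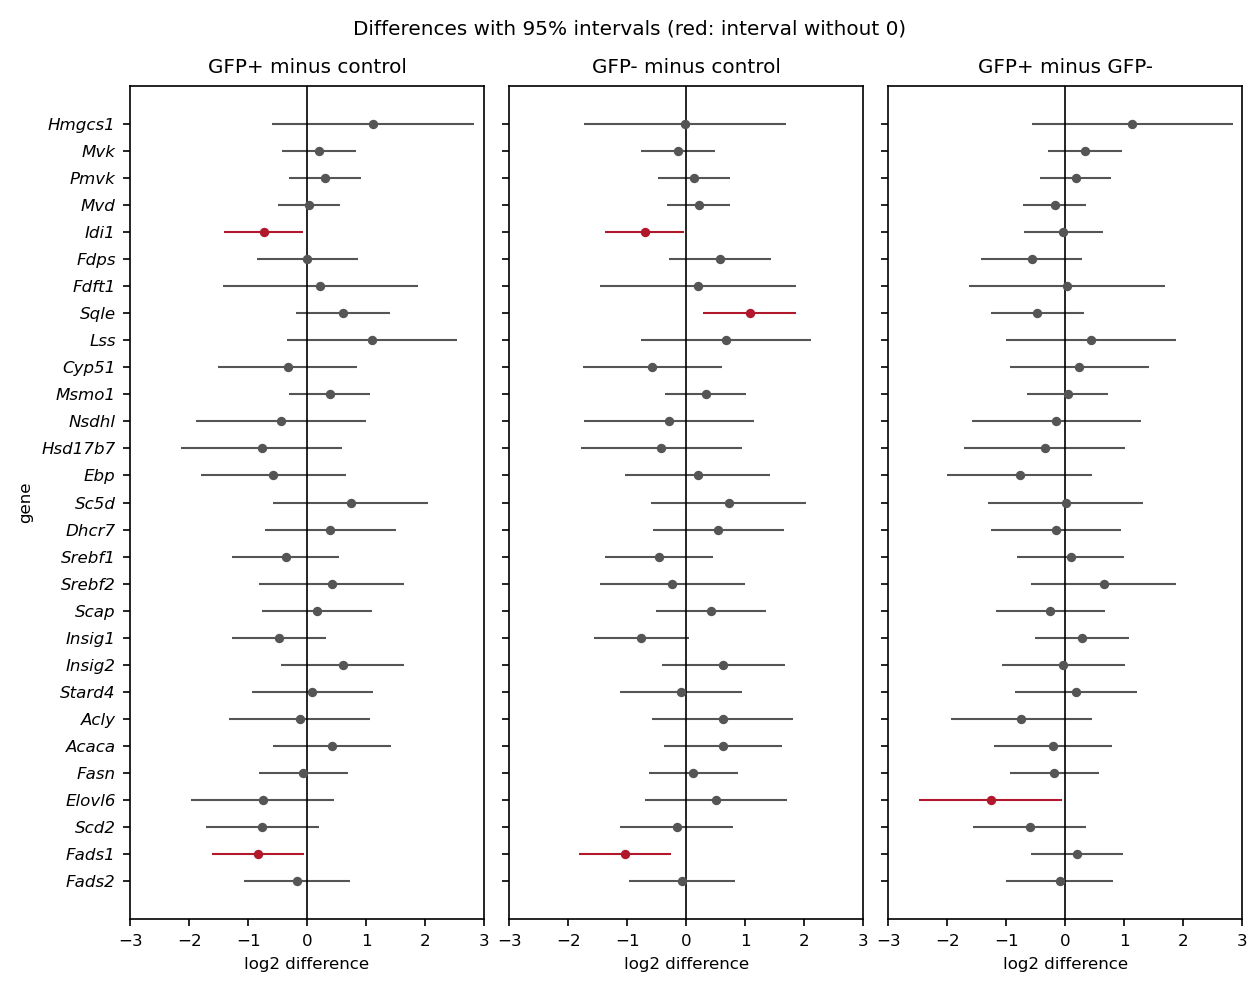
Log2 differences of the 29 tested members (points) with 95% intervals from limma (lines) for GFP-positive minus control, GFP-negative minus control and GFP-positive minus GFP-negative cells. Red marks intervals without 0: Idi1 and Fads1 in both comparisons with control, Sqle in GFP-negative cells, and Elovl6 between the fractions.

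The third comparison asked whether the fractions of the dnMPL mice differed from each other. Here 13 of 29 members were higher (51.8% of all genes were) and 16 lower in GFP-positive cells, with a median log2 difference of -0.029 against 0.015 over all genes. None passed the adjusted test (limma adjusted p of every member near 1, with 0% of all genes past it). Elovl6 was the only tested member with an unadjusted limma p under 0.05, and it was lower (1.27% of all genes were lower at that level and 2.55% in either direction). In 0 of the 29 tested members did the groups not overlap, against 6.40% of all genes. With both dnMPL fractions jointly against control, 17 of 29 members were higher (46.4% of all genes were) and 12 lower (median 0.091 against -0.033 over all genes). Fads1 and Idi1 were then lower and Sqle higher at an unadjusted limma p under 0.05, 3 of 29 members against 7.25% of all genes, and Fads1 and Idi1 had groups that did not overlap, 2 of 29 against 3.56% of all genes in either direction and 1.96% lower. The smallest limma adjusted p of a member was 0.559 there.

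The precision set a limit on what could be seen. The 95% interval of the log2 difference lay within -1 and 1, a 2-fold change either way, in 5 of 29 members for GFP-positive against control, 5 for GFP-negative against control and 8 for GFP-positive against GFP-negative. Mvk, Pmvk, Mvd and Fasn were among these in all of the comparisons named. For the other members a 2-fold difference lay inside the interval. Members varied somewhat more within groups than other genes did, with a median pooled SD of 0.59 on the log2 scale against 0.49 over all genes tested. Hmgcs1 had the largest such SD (1.12) and Mvd the smallest (0.12).

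**Figure D2:**
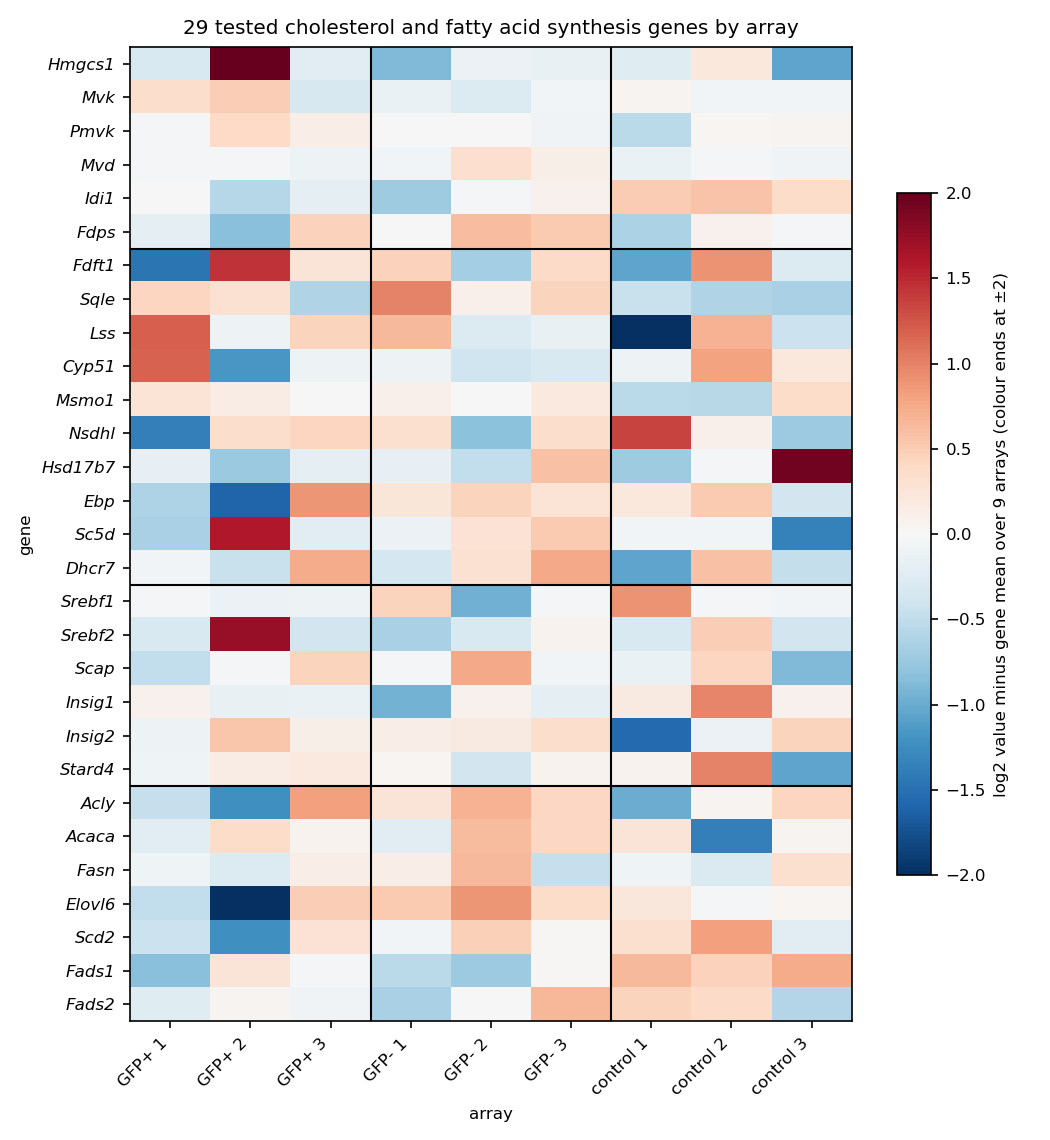
Log2 value of each tested member on each array minus the gene's mean over 9 arrays, with red above and blue below that mean and colour ending at 2 in either direction. Rows are grouped from top to bottom as early mevalonate steps, squalene and sterol steps, regulators with Stard4, and fatty acid genes. No group of columns is of 1 colour, and rows of the same group often differ within an array.

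In the early mevalonate pathway, Idi1 stood apart from the controls in both dnMPL fractions. Its log2 level was 8.48, 7.91 and 8.30 on the GFP-positive arrays and 7.77, 8.44 and 8.57 on the GFP-negative arrays, against 8.99, 9.05 and 8.85 on the control arrays. All 6 dnMPL arrays lay below every control array. The log2 difference was -0.73 ± 0.30 (SE) in GFP-positive and -0.70 ± 0.30 in GFP-negative cells (limma adjusted p = 0.731 and 0.876). The fractions differed by -0.029 ± 0.30. The other Idi1 probe set above the filter showed the same order: 7.18, 7.21 and 7.64 on GFP-positive and 7.75, 7.43 and 7.19 on GFP-negative arrays, against 7.80, 8.15 and 7.94 on control arrays. Without GFP-negative array 1, the lowest of all, the difference in GFP-negative cells was -0.46.

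Hmgcs1, which condenses acetyl-CoA units into the precursor of mevalonate, had log2 levels of 8.78, 11.89 and 8.86 in GFP-positive cells and 8.20, 8.97 and 8.94 in GFP-negative cells, against 8.84, 9.29 and 8.03 in control cells. A single array, GFP-positive 2, lay more than 2 log2 units above all others. The same array was also the highest for the other 3 Hmgcs1 probe sets above the filter, at 7.23, 6.74 and 6.72. The difference of GFP-positive from control cells was 1.12 ± 0.76, and 0.095 without that array. GFP-positive against GFP-negative cells gave 1.14 ± 0.76, and 0.11 without it.

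Farnesyl diphosphate synthase, encoded by Fdps, joins the isoprenoid units. It was at 4.87, 4.21 and 5.50 on GFP-positive and 5.05, 5.67 and 5.57 on GFP-negative arrays, against 4.41, 5.13 and 5.03 on control arrays. The groups overlapped, with differences of 0.0061 ± 0.38 in GFP-positive and 0.57 ± 0.38 in GFP-negative cells against control and -0.57 ± 0.38 between the fractions. Without control 1 the GFP-negative difference was 0.35, and without GFP-positive array 2 that between the fractions was -0.24. Mvk and Pmvk, the kinases that phosphorylate mevalonate, and the decarboxylase Mvd differed by 0.037 to 0.31 in GFP-positive and by -0.14 to 0.21 in GFP-negative cells. These were the members with the narrowest intervals, and for Mvd the interval in GFP-positive cells ran from -0.49 to 0.57.

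Among the squalene and sterol steps, Sqle, the squalene epoxidase and a rate-limiting enzyme of the branch, had the largest difference relative to its spread in GFP-negative cells. Its log2 level was 6.44, 6.32 and 5.41 on GFP-positive and 7.01, 6.11 and 6.46 on GFP-negative arrays, against 5.57, 5.41 and 5.37 on control arrays. Every GFP-negative array lay above the controls, while GFP-positive array 3 lay among them. The difference was 1.08 ± 0.35 in GFP-negative cells (limma adjusted p = 0.783) and 0.61 ± 0.35 in GFP-positive cells (limma adjusted p = 0.838). The difference between the fractions was -0.47 ± 0.35, with an interval from -1.26 to 0.32, and -0.15 without GFP-positive array 3. Sqle has 1 probe set, so no other probe set could be set beside it.

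**Figure D3:**
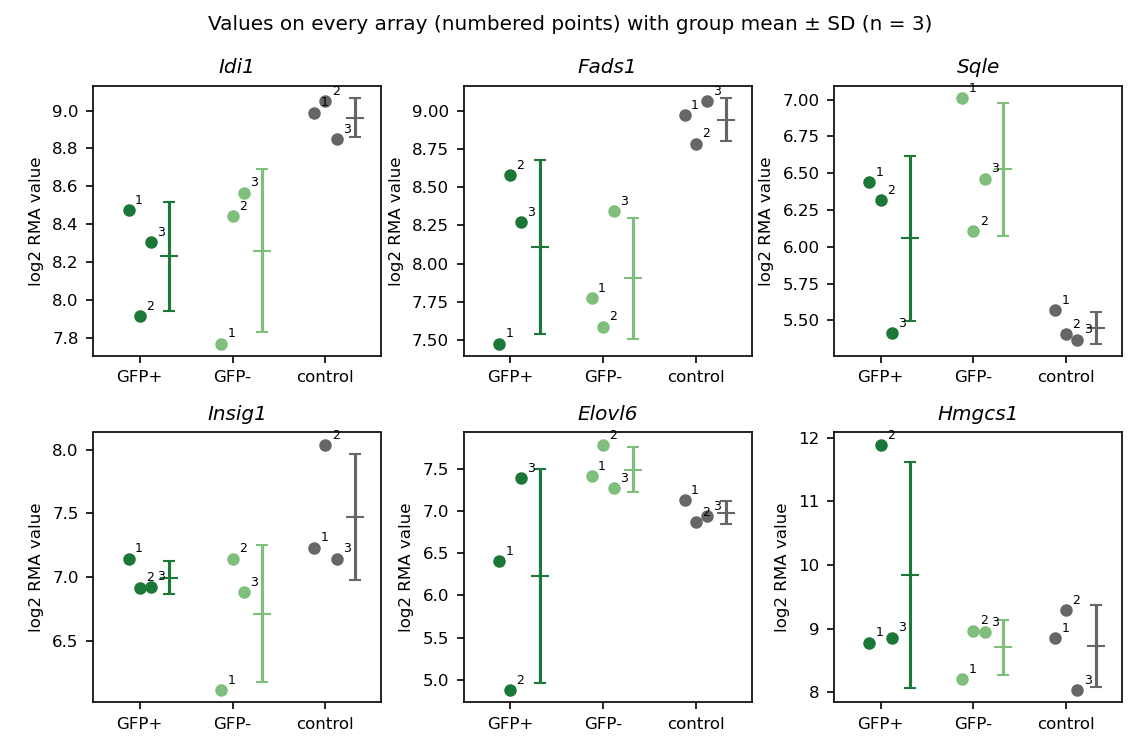
Log2 RMA values of Idi1, Fads1, Sqle, Insig1, Elovl6 and Hmgcs1 on every array (points numbered by replicate) with the group mean and SD (n = 3) beside them, in GFP-positive, GFP-negative and control cells. Idi1 and Fads1 lie lower on all 6 dnMPL arrays than on the controls, and the Hmgcs1 and Elovl6 means of GFP-positive cells rest on array 2.

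Lss, which closes the squalene epoxide into lanosterol, was at 8.18, 6.89 and 7.44 on GFP-positive and 7.65, 6.72 and 6.85 on GFP-negative arrays, against 4.94, 7.68 and 6.57 on control arrays. GFP-positive array 1 was the highest and control 1 the lowest of the 9, and the groups overlapped. The difference was 1.11 ± 0.64 in GFP-positive and 0.67 ± 0.64 in GFP-negative cells. Without control 1 it was 0.38 and -0.053. A second Lss probe set gave 1.08 and 0.52, and control 1 was its lowest array too. The other enzymes of this branch showed no common direction. In GFP-positive cells the squalene synthase Fdft1, the methylsterol oxidase Msmo1, the desaturase Sc5d and the last reductase Dhcr7 differed by 0.23, 0.38, 0.74 and 0.40. The demethylase Cyp51, the dehydrogenases Nsdhl and Hsd17b7 and the sterol isomerase Ebp differed by -0.33, -0.44, -0.77 and -0.57. These values rest on few arrays: without GFP-positive array 2 Fdft1, Sc5d, Cyp51 and Ebp were at -0.46, 0.061, 0.24 and 0.0067, without control 1 Dhcr7 was at 0.026, and without control 3 Hsd17b7 was at -0.0040. Nsdhl was at 0.15 without GFP-positive array 1. In GFP-negative cells the range of these 8 genes, by their brightest probe sets, was from -0.57 (Cyp51) to 0.73 (Sc5d). The 2 other Cyp51 probe sets above the filter pointed the other way in GFP-negative cells, at 0.79 and 1.00. Between the fractions they were at -0.89 and -1.53, against 0.24 for the brightest. The other Hsd17b7 probe set above the filter was at 6.09, 4.91 and 5.36 on GFP-positive and 4.19, 4.13 and 4.28 on GFP-negative arrays, against 4.94, 5.35 and 5.41 on control arrays. By that probe set all GFP-negative arrays lay below both other groups, with differences of 0.22 in GFP-positive and -1.03 in GFP-negative cells against control and 1.25 between the fractions. No probe set passed the adjusted test. The 10 tested genes of the branch had a median difference of 0.31 in GFP-positive and 0.27 in GFP-negative cells. On the control arrays alone, however, their median deviation from the gene means ran from -0.49 on array 1 to 0.31 on array 2. The sterol reductase Tm7sf2, below the filter, was at 3.35, 3.40 and 3.04 on GFP-positive and 4.61, 3.81 and 3.55 on GFP-negative arrays, against 3.49, 4.16 and 4.22 on control arrays.

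Of the regulators, Insig1, itself a target of the SREBPs, had the smallest p against control among the brightest probe sets. It was at 7.14, 6.92 and 6.93 on GFP-positive and 6.11, 7.14 and 6.88 on GFP-negative arrays, against 7.23, 8.04 and 7.14 on control arrays. Control array 2 was the highest of the 9, and the groups touched at 7.14, a value that summarising by median polish can give to several arrays. The difference was -0.48 ± 0.36 in GFP-positive cells (limma adjusted p = 0.905) and -0.76 ± 0.36 in GFP-negative cells (limma adjusted p = 0.879). Without control 2 the GFP-positive difference was -0.19, and the GFP-negative difference was -0.48. Without GFP-negative array 1 the GFP-negative difference was -0.46.

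Insig2, the second INSIG gene, was at 5.96, 6.62 and 6.18 on GFP-positive and 6.19, 6.25 and 6.41 on GFP-negative arrays, against 4.51, 5.94 and 6.51 on control arrays. Its difference of 0.60 ± 0.47 in GFP-positive and 0.63 ± 0.47 in GFP-negative cells came with groups that overlapped, and without control 1 it was 0.030 and 0.058. Another of its probe sets pointed the other way, at -0.49 in GFP-positive and -0.79 in GFP-negative cells. Scap was at 5.59, 6.05 and 6.51 on GFP-positive and 6.05, 6.84 and 6.02 on GFP-negative arrays, against 5.95, 6.50 and 5.19 on control arrays. Its groups overlapped, with differences of 0.17 ± 0.41 and 0.42 ± 0.41. Its other probe set was at 4.78, 4.21 and 4.93 on GFP-negative against 3.95, 3.47 and 4.20 on control arrays. These groups did not overlap, against 11% of all probe sets in either direction. The differences were 0.77 ± 0.33 (limma adjusted p = 0.911) in GFP-negative and 0.22 ± 0.33 in GFP-positive cells. Stard4, which transfers sterol between membranes, differed by 0.090 in GFP-positive and -0.091 in GFP-negative cells.

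Srebf1 was at 5.89, 5.81 and 5.82 on GFP-positive and 6.38, 4.97 and 5.89 on GFP-negative arrays, against 6.83, 5.90 and 5.88 on control arrays. Its difference was -0.36 ± 0.40 in GFP-positive and -0.46 ± 0.40 in GFP-negative cells, with groups that overlapped. Srebf2 depended on the probe set. By its brightest probe set it was at 7.20, 9.24 and 7.14 on GFP-positive and 6.85, 7.20 and 7.57 on GFP-negative arrays, against 7.20, 7.99 and 7.14 on control arrays, with GFP-positive array 2 the highest. The difference in GFP-positive cells was 0.42 ± 0.55, and -0.27 without that array. By its other probe set it was at 6.07, 5.84 and 5.96 on GFP-positive and 6.69, 6.36 and 5.56 on GFP-negative arrays, against 6.92, 7.14 and 8.13 on control arrays. All 6 dnMPL arrays lay below the controls by that probe set, with differences of -1.44 ± 0.40 and -1.19 ± 0.40. In a fit of all 22426 single-gene probe sets above the filter, added after the data were seen, the limma adjusted p was 0.678 and 0.858.

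In the fatty acid branch, Fads1 had groups that did not overlap. Its log2 level was 7.48, 8.58 and 8.27 on GFP-positive and 7.78, 7.59 and 8.34 on GFP-negative arrays, against 8.97, 8.79 and 9.06 on control arrays. All 6 dnMPL arrays were below the lowest control array. The difference was -0.83 ± 0.35 in GFP-positive cells (limma adjusted p = 0.732), and -0.51 without GFP-positive array 1. In GFP-negative cells it was -1.04 ± 0.35 (limma adjusted p = 0.808), a level 2.05-fold lower. The other Fads1 probe set above the filter did not show this: 7.01, 5.01 and 6.59 on GFP-positive and 6.22, 7.76 and 6.59 on GFP-negative arrays, against 8.05, 6.31 and 4.54 on control arrays. Fads2, the partner desaturase and a neighbour of Fads1 on mouse chromosome 19, differed by -0.17 ± 0.40 and -0.071 ± 0.40. Its 2 other probe sets above the filter were at -0.84 and -0.54 in GFP-positive and -0.040 and -0.16 in GFP-negative cells, with groups that overlapped.

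Elovl6, which elongates palmitate, gave the smallest p between the fractions. The GFP-positive arrays were at 6.41, 4.88 and 7.40 and the GFP-negative arrays at 7.42, 7.79 and 7.27, against 7.13, 6.87 and 6.94 on control arrays. All GFP-negative arrays lay above the controls, and the GFP-positive arrays lay on both sides of them. GFP-positive minus GFP-negative cells gave -1.26 ± 0.54 (limma adjusted p near 1), and -0.59 without GFP-positive array 2. The difference from control was -0.75 ± 0.54 in GFP-positive (-0.078 without array 2) and 0.51 ± 0.54 in GFP-negative cells. Of the other Elovl6 probe sets, the difference between fractions was -0.47 in one and 0.24 in the other.

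Scd2, a stearoyl-CoA desaturase, was at 8.03, 7.25 and 8.76 on GFP-positive and 8.41, 8.95 and 8.48 on GFP-negative arrays, against 8.78, 9.29 and 8.24 on control arrays, a difference of -0.76 ± 0.43 for GFP-positive against control and -0.60 ± 0.43 against GFP-negative cells. Without GFP-positive array 2 these were -0.38 and -0.22. Its paralog Scd1 was below the filter by its mean but not evenly so. It was at 4.46, 3.66 and 3.89 on GFP-positive and 5.48, 3.88 and 2.81 on GFP-negative arrays, against 2.43, 1.97 and 6.58 on control arrays, so that control 3 was the highest of all. Acly, which makes cytosolic acetyl-CoA, was at 8.72, 7.96 and 10.00 on GFP-positive and 9.44, 9.88 and 9.59 on GFP-negative arrays, against 8.19, 9.24 and 9.61 on control arrays. Its groups overlapped, and the fractions differed by -0.75 ± 0.53, by -0.28 without GFP-positive array 2, and by -0.050 and -0.078 with the other probe sets above the filter. The carboxylase Acaca differed by 0.43 in GFP-positive and 0.63 in GFP-negative cells, by -0.078 and 0.12 without control 2, and by -0.82 and -0.026 with its other probe set. The fatty acid synthase Fasn differed by -0.061 and 0.12. The Fasn interval in GFP-negative cells ran from -0.63 to 0.87.

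Probe sets of the same gene often disagreed. In 19 members 2 or more probe sets lay above the filter. For GFP-positive against control 16 of the 30 further probe sets pointed the same way as the brightest, for GFP-negative against control 16, and for GFP-positive against GFP-negative 20. With both fractions against control, all probe sets above the filter pointed the same way in 7 of 19 members, Hmgcs1, Idi1, Lss, Hsd17b7, Scap, Acly and Fads2. Of all 59 member probe sets above the filter, 5 had groups that did not overlap in that comparison, all lower on the dnMPL arrays, against 3.37% of the 22426 in either direction. These were both of Idi1, the brightest of Fads1, and the less bright of Srebf2 and Mvk. The Mvk probe set differed by -0.26 in GFP-positive and -0.51 in GFP-negative cells, while the brightest differed by 0.20 and -0.14. For GFP-positive against control, 0 member probe sets were higher and 6 lower without overlap, against 8.61% of all probe sets in either direction. For GFP-negative against control 3 were higher and 7 lower, against 11% in either direction. The share lower alone was not counted over all probe sets. Probe sets of the same gene were counted separately and are not independent. Between the fractions 2 were higher, of Mvk and Hsd17b7, and 1 was lower, of Cyp51 (6.71% of all probe sets).

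**Figure D4:**
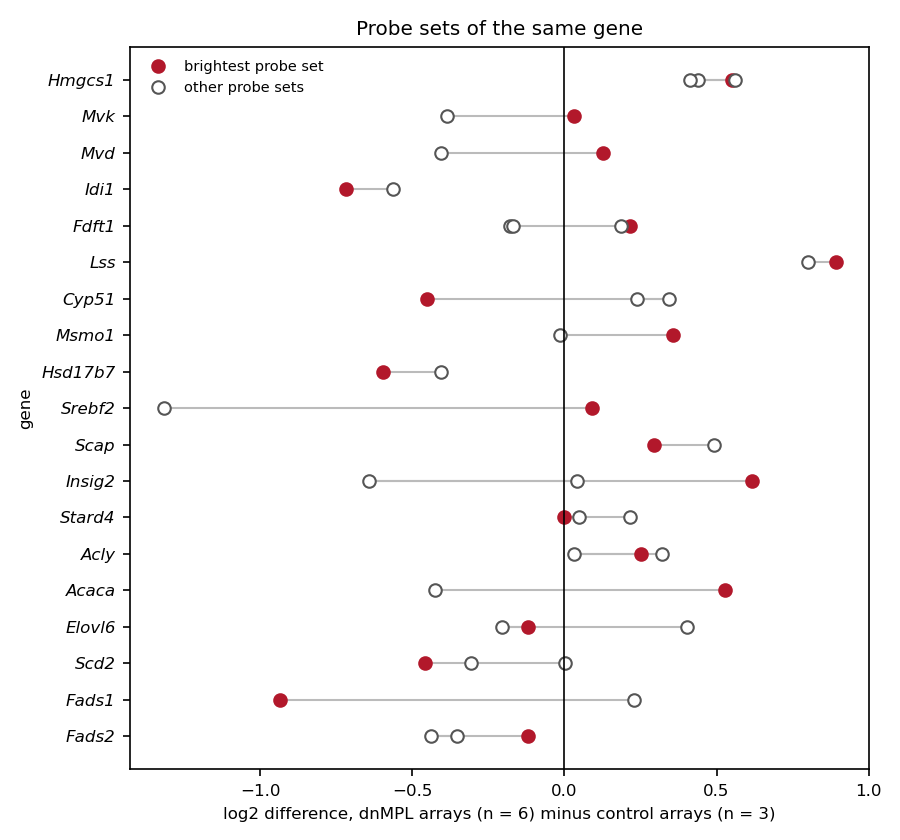
Log2 difference of the 6 dnMPL arrays from the 3 control arrays for each probe set above the filter, in the 19 members with 2 or more of them. Filled points are the brightest probe set and open points the others; those of Idi1 and Lss lie close together, and those of Srebf2 and Fads1 lie on both sides of 0.

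Promoter sequences were set beside these values to see which letters the genes share. Of the 32 genes, 25 had a window of 250 bases before to 50 after the start site in the RefSeq tables (GRCm38.p6). The windows of Idi1 and Insig1, both lower in dnMPL cells by point estimate, of Hmgcs1, which has the sterol element TCACNCCAC, and of Elovl6, which has none of the motifs, are shown 5′ to 3′ on the strand of the gene. Capitals mark the motifs searched on both strands: TCACNCCAC and SRE-1 (forms of the sterol regulatory element), CCAAT (the NF-Y box) and CACGTG (an E-box). Every SRE-1 match is also a TCACNCCAC match. The windows lie at chr13:8885356-8885655 (Idi1, plus strand), chr5:28071162-28071461 (Insig1, plus strand), chr13:119690101-119690400 (Hmgcs1, plus strand) and chr3:129532136-129532435 (Elovl6, plus strand).
Idi1: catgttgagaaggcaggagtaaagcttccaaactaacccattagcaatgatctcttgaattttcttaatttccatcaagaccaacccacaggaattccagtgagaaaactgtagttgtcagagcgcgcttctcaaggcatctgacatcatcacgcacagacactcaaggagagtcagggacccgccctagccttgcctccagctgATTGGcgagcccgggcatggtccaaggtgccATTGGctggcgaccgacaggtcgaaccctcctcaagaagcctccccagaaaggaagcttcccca
Insig1: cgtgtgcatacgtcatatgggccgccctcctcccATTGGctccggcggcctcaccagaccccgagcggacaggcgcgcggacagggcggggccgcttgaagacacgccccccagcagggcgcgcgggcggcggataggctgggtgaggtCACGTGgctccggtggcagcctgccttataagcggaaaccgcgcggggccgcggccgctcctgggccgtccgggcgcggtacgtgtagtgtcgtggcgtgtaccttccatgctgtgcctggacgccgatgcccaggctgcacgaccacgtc
Hmgcs1: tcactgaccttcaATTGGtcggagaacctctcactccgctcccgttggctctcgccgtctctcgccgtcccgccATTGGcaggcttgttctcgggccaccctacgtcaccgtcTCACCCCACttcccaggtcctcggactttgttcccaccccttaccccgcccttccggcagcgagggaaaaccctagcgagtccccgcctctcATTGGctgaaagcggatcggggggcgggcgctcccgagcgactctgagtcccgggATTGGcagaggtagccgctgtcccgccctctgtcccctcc
Elovl6: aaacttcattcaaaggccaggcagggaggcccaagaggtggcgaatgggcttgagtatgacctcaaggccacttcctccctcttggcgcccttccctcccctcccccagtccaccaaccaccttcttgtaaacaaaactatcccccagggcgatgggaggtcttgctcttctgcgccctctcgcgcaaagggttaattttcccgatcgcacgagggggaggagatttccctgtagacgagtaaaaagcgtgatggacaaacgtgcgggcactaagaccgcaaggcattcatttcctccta

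Only the first listed window of each gene was counted. CCAAT was found in 19 of 25 of these (76%), against 37.9% of 27018 windows of all genes. CACGTG was found in 4 of 25 (16%) against 7.24%, TCACNCCAC in 1 of 25 (4%) against 1.22%, and SRE-1 in 0 of 25 against 0.0851%. In Idi1 CCAAT lay on the reverse strand at positions -45 and -14, counted from the start site to the leftmost base. Insig1 held CACGTG at -101 and CCAAT at -216, and Hmgcs1 held TCACNCCAC at -137 with CCAAT at 4 positions. Members with CCAAT were found among those higher and among those lower in dnMPL cells, such as Lss and Idi1. A match of letters says nothing about binding in these cells.

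Genes that neighbour these pathways were counted from further lists. Over all genes tested, 47.2% were higher in GFP-positive and 46.5% in GFP-negative cells. Groups did not overlap in 8.61% of all genes for GFP-positive and 11.4% for GFP-negative cells against control. The share was 3.56% for both fractions jointly against control and 6.40% between the fractions. Of 7 tested genes of the isoprenoid branch, 2 were higher and 5 lower in GFP-positive and 4 higher and 3 lower in GFP-negative cells, with 0 past the adjusted test. Nus1, a subunit of the enzyme that makes dolichol, was at 8.33, 8.59 and 8.89 on GFP-positive and 8.59, 8.54 and 8.33 on GFP-negative arrays, against 7.54, 7.79 and 7.30 on control arrays. All dnMPL arrays lay above the controls, with differences of 1.05 ± 0.27 and 0.94 ± 0.27 (limma adjusted p = 0.500 and 0.674). Pggt1b, of the same list, was lower in GFP-positive than in GFP-negative cells, by -1.53 ± 0.60 (limma adjusted p near 1), with groups that overlapped. A further list held 4 tested genes in or beside the sterol pathway, Lbr, Acat1, Ggps1 and Erg28. Of these, 3 were higher in GFP-positive and 1 in GFP-negative cells. Ggps1, which makes geranylgeranyl diphosphate, differed by 0.95 ± 0.32 between the fractions, with groups that did not overlap. Acat1 was lower than control on all dnMPL arrays, by -0.65 ± 0.30 in GFP-positive and -0.45 ± 0.30 in GFP-negative cells (limma adjusted p = 0.772 and 0.920). Sterol sensing and uptake had 2 of 9 genes higher in GFP-positive and 3 in GFP-negative cells, with Erlin2, which acts in sterol-dependent degradation, at -0.75 ± 0.35 in GFP-positive and -0.95 ± 0.35 in GFP-negative cells. Of 5 tested genes of the LXR pathway, which exports cholesterol, 0 were higher in GFP-positive and 2 in GFP-negative cells. Abca1, the cholesterol exporter, differed by -1.82 ± 0.85 between the fractions, with groups that overlapped. It was at 2.81, 3.83 and 5.99 on GFP-positive and 6.70, 5.89 and 5.51 on GFP-negative arrays, against 4.64, 6.52 and 4.00 on control arrays. The values of 2.81, 3.83 and 4.00 lay below 4.03, the mean that a gene had to pass to be tested. Among 16 other fatty acid genes, 11 were higher in GFP-positive and 7 in GFP-negative cells. The elongase Elovl1 was at 1.00 ± 0.53 in GFP-positive and 1.10 ± 0.53 in GFP-negative cells, and Elovl5 at 0.86 ± 0.46 and 0.98 ± 0.46. A further elongase, Elovl7, went the other way, at -1.64 ± 0.92 and -1.49 ± 0.92. For each of these elongases the groups overlapped. In each of these lists 0 genes passed the adjusted test in any comparison.

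Many markers of other cells were higher than in control cells by point estimate, where 47.2% of all genes were higher in GFP-positive and 46.5% in GFP-negative cells. No marker passed the adjusted test (smallest limma adjusted p of a granulocyte marker 0.291 and 0.374). All 10 granulocyte markers were higher in both fractions, with medians of 2.90 in GFP-positive and 2.35 in GFP-negative cells. Their summed level was 14.79 to 15.69 on GFP-positive and 14.12 to 15.34 on GFP-negative arrays, against 12.41 to 14.25 on control arrays. A summed level here is the log2 of the sum of unlogged values, so the brightest genes weigh most. It includes listed genes below the filter. Of 8 tested erythroid markers 6 were higher in each fraction (summed level 11.69 to 12.13 and 11.45 to 11.75, against 11.01 to 11.59 in controls). Monocyte and macrophage markers were higher in 5 of 7 (11.46 to 12.996 and 10.77 to 12.11, against 9.66 to 11.30), and Adgre1 was below the filter. Proliferation genes were higher in 9 of 14 in GFP-positive and 11 of 14 in GFP-negative cells (13.86 to 13.94 and 13.83 to 13.91, against 13.62 to 13.88). Their median deviation from the gene means was -0.066, 0.073 and -0.97 on the control arrays, so that control 3 alone stood low. B cell markers were higher in 6 of 7 and 5 of 7 (9.38 to 10.62 and 8.58 to 9.76, against 7.41 to 10.22) and mast cell and basophil markers in 5 of 5 in each (8.32 to 9.42 and 7.81 to 8.90, against 7.58 to 7.73, with Fcer1a below the filter). Of the adipocyte markers, Adipoq and Lep were below the filter and Fabp4, which other cells express too, was the only one tested, at 3.02 and 2.84 above control. Of the endothelial and stromal markers 3 of 3 tested were higher in each fraction, and Cdh5, Kdr and Lepr were below the filter. The part of these cells in the differences of Idi1, Fads1, Sqle and Insig1 was not tested.

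**Figure D5:**
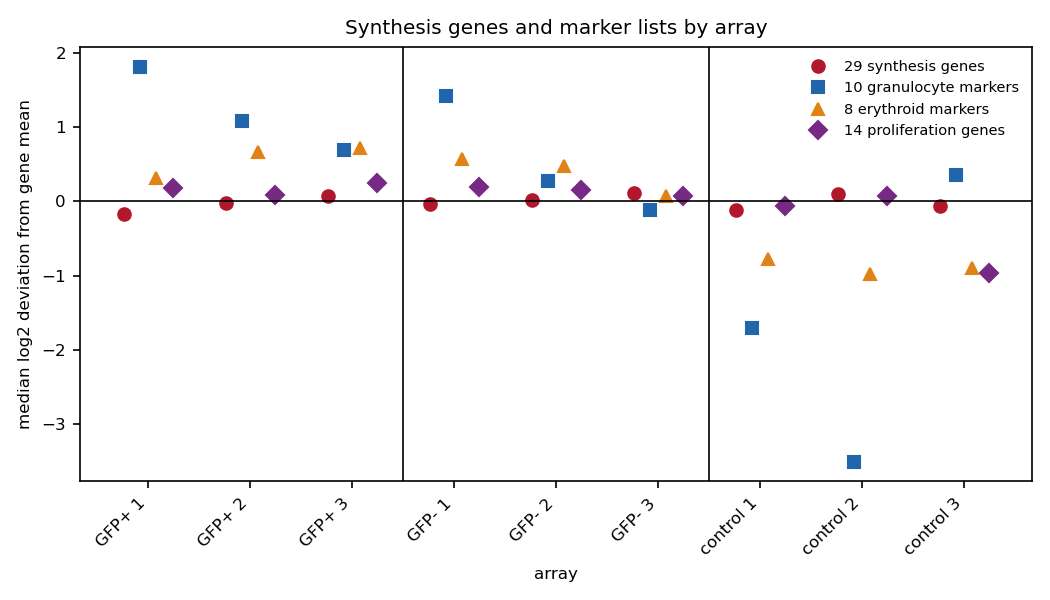
Median log2 deviation from each gene's mean over 9 arrays, by array, for the 29 tested synthesis genes and for granulocyte, erythroid and proliferation markers. The median of the synthesis genes stays between -0.17 and 0.11 on every array, while that of granulocyte markers runs from -3.51 on control 2 to 1.82 on GFP-positive 1. Single synthesis genes varied more than their median, with a median range of 1.99 over the 9 arrays.

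By array, the median deviation of the 29 members was -0.17, -0.020 and 0.071 on GFP-positive and -0.030, 0.016 and 0.11 on GFP-negative arrays, against -0.11, 0.098 and -0.060 on control arrays. The lowest array was GFP-positive 1, where 6 of 29 members lay above their own mean, and the highest was GFP-negative 3, where 20 did. By array the number was 6, 14 and 15 on GFP-positive and 13, 16 and 20 on GFP-negative arrays, against 12, 18 and 12 on control arrays.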

How the data were processed

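RNA from 9 sorted samples was read on 1 array each after amplification and biotin labelling, per the labels' protocols. The authors deposited log2 values made with RMA, according to the submitters' processing notes; its version is not given in the sources used here. RMA summarises the probes of a probe set, and 12 of the 31 member probe sets held a value that several arrays share, which can make their spread look too small. The platform annotation named 1 gene for 34945 of 45101 probe sets, several for 932 and none for 9160, besides 64 control probe sets, and 34741 of the first were matched to RefSeq symbols by Entrez number. A gene was tested where its mean passed 4.03, the 40th percentile over non-control probe sets.

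The groups were fitted jointly on the 9 arrays (lmFit and eBayes of limma 3.58.1 under R 4.3.3), and p-values were adjusted by Benjamini-Hochberg with a threshold of 0.05. With 3 arrays a side, exact permutation reaches p = 0.1 at best. The labels do not say that arrays of a group came from separate experiments, so p-values measure the spread between these samples. The labels do not say whether same-numbered arrays came from the same mice. Same-numbered arrays did not deviate together, which with 3 arrays a group cannot exclude shared mice. The members and lists were chosen with earlier results of these data known. Values on every array are given for members whose groups do not overlap, the 5 with the smallest p in a comparison and the regulators; of the other lists, up to 4 genes with the smallest p were named. Alternatives changed the filter, the probe set, the normalization, the variance prior, array weights, the arrays in the fit, the replicate block and the threshold. Plots came from matplotlib 3.10.9 (Python 3.11.15).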

Additional observations from a re-analysis of the deposited data

How the results depend on the processing

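No gene passed the adjusted threshold in any comparison under any alternative except array weights, where 3 genes, no member among them, passed for both dnMPL fractions against control. At an unadjusted limma p under 0.05, the count of members for GFP-positive against control (2) was 1 with averaged probe sets, 1 with the probe set of largest variance, 4 with array weights, 1 with only the groups compared and 0 with the replicate number as a block, and ranged from 0 (without control 1) to 4 (without GFP-positive 3) without 1 array. For GFP-negative against control (3) it was 5 with the mean of probe sets and 5 without both control 3 and GFP-positive 2, and ranged from 1 (without GFP-negative 1) to 5 (without control 3). Between the fractions (1) it was 0 with the mean of probe sets, 0 with only the groups compared and 0 without both arrays, and ranged from 0 (without any array but GFP-positive 3) to 5 (without GFP-positive 3). For both fractions against control (3) it was 5 with array weights and ranged from 2 to 4 without 1 array. The median difference of members for GFP-positive against control (0.037) was -0.20 with the mean of probe sets, -0.098 with the probe set of largest variance, -0.090 with array weights, -0.097 without both arrays and -0.064 to 0.11 without 1 array. Between the fractions (-0.029) it was -0.15, -0.20, -0.15, -0.16 and -0.16 to 0.11 under the same settings. For both fractions against control (0.091) it was -0.049 without both arrays and 0.032 to 0.15 without 1 array, and for GFP-negative against control (0.13) it was 0.058 to 0.23 without 1 array. Fads1, by the probe set of largest variance, differed by 0.56 in GFP-negative cells and by 0.23 in both fractions together, which turns its direction; this setting reads the other probe set. Same-numbered arrays correlated between -0.29 and 0.099 in their deviations from the group means, and 5 of 18 array and group cases correlated best with their own number, so the numbers were not taken as pairs.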
